A study of Arabidopsis thaliana with 10 samples.

Results

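The genes described here were the 4 members of the AGL17 clade of MADS-box genes, AGL17 (AT2G22630), AGL21 (AT4G37940), AGL16 (AT3G57230) and ANR1 (AT2G14210, named AGL44 in the annotation), together with AGL12 (AT1G71692, also XAL1). They were 5 of 27444 protein-coding genes of Arabidopsis thaliana. In the TAIR10.1 annotation AGL17 lies at chr2:9618207-9622163, AGL16 at chr3:21177282-21181026 and ANR1 at chr2:6018558-6023863 on the plus strand, and AGL21 at chr4:17835217-17838969 and AGL12 at chr1:26952545-26955127 on the minus strand. They were chosen as a family, and every summit from 3000 bp upstream of the gene start to 1000 bp downstream of the gene end was taken from the 9 peak lists. The peaks came from DNA-affinity purification sequencing (DAP-seq), in which tagged proteins made in vitro pull down fragments of naked genomic DNA, here amplified DNA of Col-0 seedlings 2 weeks old. The 3 complexes below were each compared against the same single input DNA library. The SEP3-AG complex (3 libraries) held FLAG-tagged SEPALLATA3 and Myc-tagged AGAMOUS and can form tetramers. In SEP3Δtet-AG (2 libraries), SEP3 was a splice variant lacking part of its tetramerisation region, and the complex was largely dimeric. SEP3 alone (4 libraries) was purified through FLAG only, whereas both heteromeric complexes went through FLAG and then Myc, so protein partner and purification cannot be told apart in comparisons with SEP3. No expression was measured, and the DNA carried no chromatin, so the root expression for which the family is known could not be checked in these data.

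MADS-domain proteins of the MIKC type carry a DNA-binding MADS domain, a linker, a keratin-like domain for oligomerisation and a variable C-terminus. They bind CArG boxes as dimers, and tetramers can hold a pair of boxes at once. SEP3 and AG specify floral organs, whereas the AGL17 clade and AGL12 are best known outside the flower. ANR1 acts in nitrate-dependent lateral root growth, AGL21 in lateral root development and abscisic acid responses, and AGL12 in cell proliferation of the root meristem and in flowering. AGL17 promotes flowering in long days, and AGL16 represses flowering and acts in leaf stomatal development.

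The lists differed widely in length. SEP3-AG lists held 6643 to 9588 summits and SEP3Δtet-AG lists 2329 and 3331, whereas the SEP3 lists held 473, 1225 and 1915 summits for replicates 1 to 3 and 8916 for replicate 4. SEP3 replicate 4 thus stood apart from its group, and values that rest on it are named as such. Sequencing depth did not follow list length. Relative to the input DNA, the recovered depth ranged from 0.870 to 1.25 in SEP3-AG libraries, was 1.29 and 2.15 in those of SEP3Δtet-AG, and ranged from 1.57 to 2.30 among the SEP3 libraries, of which the deepest was replicate 1 with the shortest list. A gene that is not in a list can therefore be bound below the threshold of that library, at −log10 q of 4.

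In the 5 gene regions the 9 lists held 45 summits, which formed 12 distinct sites (summits within 200 bp of a better-ranked summit). AGL21 had 20 summits in 4 sites, AGL16 12 summits in 2 sites, AGL17 10 summits in 3 sites and ANR1 3 summits in 3 sites. AGL12 had none. Numbering the sites of each gene from upstream to downstream, the recurrent sites were AGL17 site 3, AGL16 sites 1 and 2, and AGL21 sites 1 to 4, all listed in every SEP3-AG library. The other 5 sites, AGL17 sites 1 and 2 and the 3 of ANR1, were each in 1 list only, and were listed in either SEP3 replicate 4 or SEP3-AG replicate 1. SEP3 replicate 4 alone gave 9 of the 14 SEP3 summits, and without this library the number of distinct sites was 9.

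**Figure D1:**
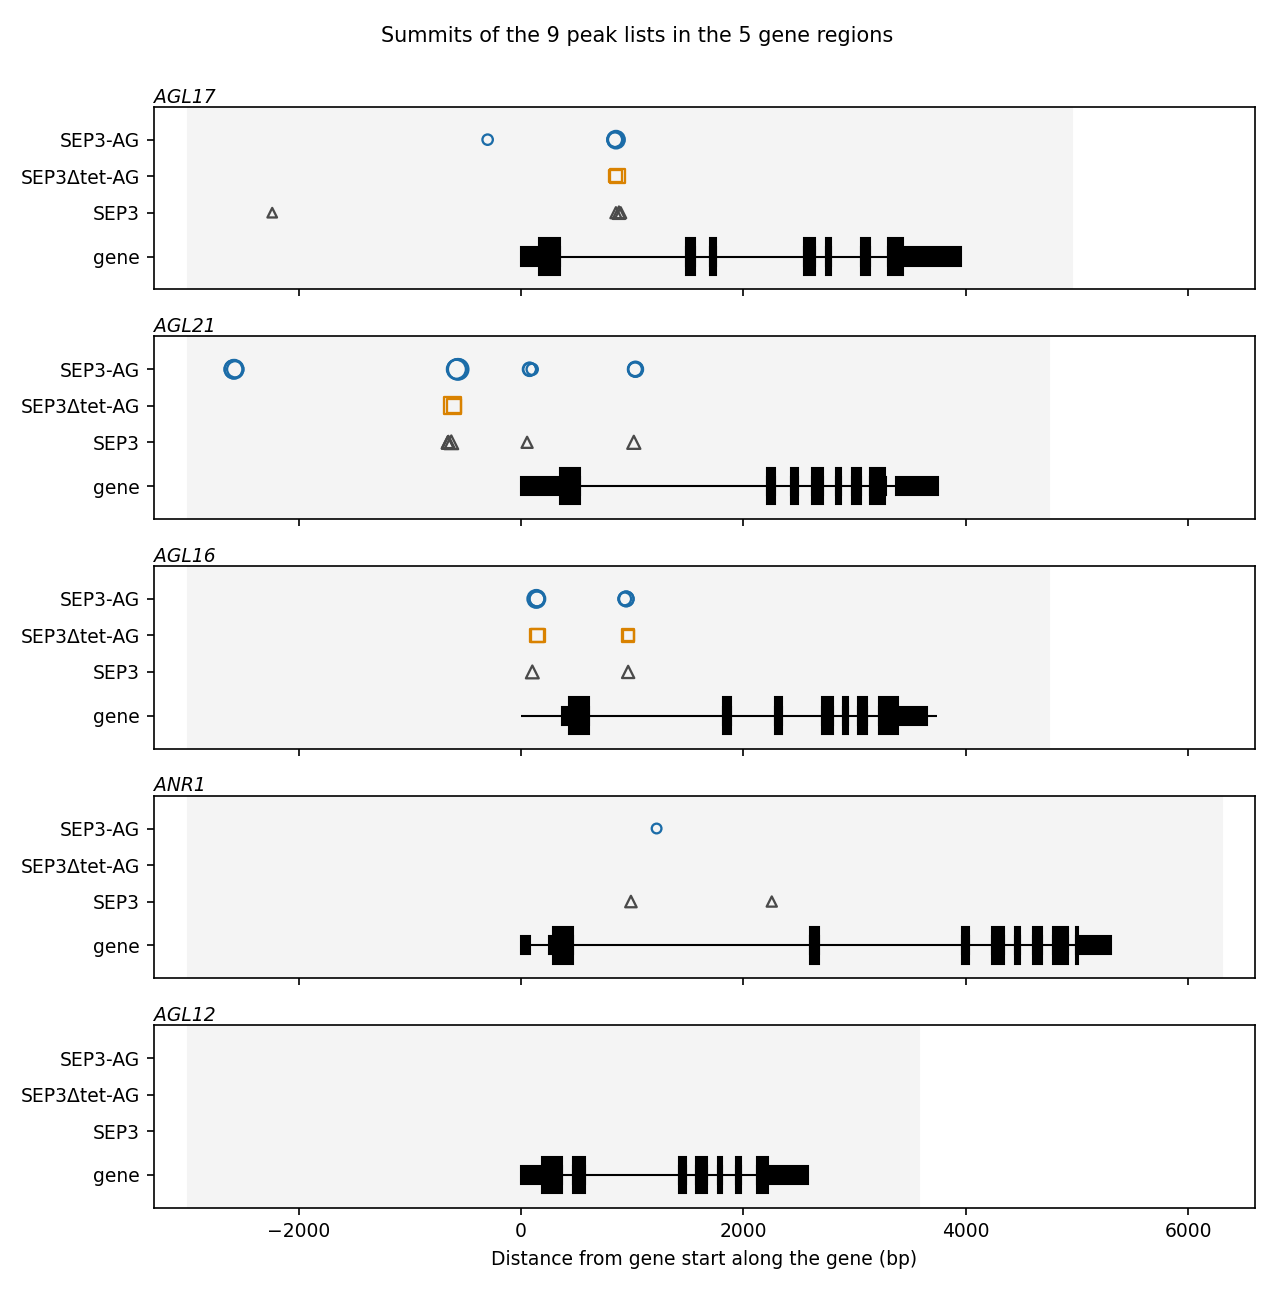
Summits in the 5 gene regions by distance from the gene start in bp, with 1 row per complex and the transcript with the longest coding part below (tall boxes coding, low boxes untranslated). Symbols grow with fold enrichment and the grey band is the region searched: AGL21 carries 4 sites, AGL12 none.

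Sequences at 6 of the 7 sites in every SEP3-AG list, all but AGL21 site 1, are printed first, because the results below refer to them. They are from the TAIR10.1 reference, 5′ to 3′ in the direction of the gene unless stated, with CArG boxes in capitals. A CArG box was CC, then 6 bases each A or T, then GG, on either strand, with at most 1 mismatch allowed where stated. The promoter site of AGL21 is shown with all its summits, because the complexes had their summits at different places along it (chr4:17839495-17839668, minus strand).
AGL21 site 2: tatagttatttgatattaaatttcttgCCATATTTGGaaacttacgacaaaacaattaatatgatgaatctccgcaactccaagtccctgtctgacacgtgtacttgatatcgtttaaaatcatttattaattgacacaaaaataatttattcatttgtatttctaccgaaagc

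The next 3 stretches are shown because the same 10 bases stood at the summits in 3 genes. They lie in the intron after the first coding exon, the exon that encodes the MADS domain. The sequence of AGL16 is given on the strand opposite to the gene, so that the box reads alike in all. The intervals are chr2:9619047-9619076, chr4:17837933-17837962 and chr3:21178212-21178241.
AGL17 site 3: tgtgtctttgCCAAATTTAGaaacatttga
AGL21 site 4: tttgcattttCCAAATTTAGatatgtttca
AGL16 site 2: aaagtttctaCCAAATTTAGtatgtttcaa

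The last are the boxes with 1 mismatch at AGL16 site 1 and AGL21 site 3, near the gene starts. The best summit of each of these sites is exonic in some transcripts and coding in none. The intervals shown are chr3:21177437-21177466, chr4:17838900-17838929 and chr4:17838853-17838882.
AGL16 site 1: tatgttctttCCTTATGTGGctctctcttc
AGL21 site 3, first box: cacacaaataCTAATTTTGGactagaaatt
AGL21 site 3, second box: ttaaatctacCCAAAAATGTctcaaactga

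AGL21 was the gene with the most sites. Its promoter site, site 2, was in all 9 lists, and AGL21 was the only one of the 5 genes with a summit in every list, as 1.76% of all protein-coding genes had. In SEP3-AG the fold enrichment at its summit was 10.6, 9.22 and 10.7 for replicates 1 to 3 (10.2 ± 0.837, SD, n = 3). In SEP3Δtet-AG it was 7.71 and 4.97 (6.34 ± 1.94, SD, n = 2). In SEP3 it was 3.43, 4.27, 3.86 and 4.81 for replicates 1 to 4 (4.09 ± 0.590, SD, n = 4). In fold enrichment the 3 complexes did not overlap at this site, with SEP3-AG highest and SEP3 lowest. At sites listed in all libraries of both, SEP3-AG was above SEP3Δtet-AG without overlap at 77.1% and above SEP3 at 84.6%. SEP3Δtet-AG was above SEP3 at 41.8%, and no share is given for all 3 together. By percentile rank within the lists, where low is strong, the complexes overlapped at this site. The mean ranks were 9.79 in SEP3-AG, 10.1 in SEP3Δtet-AG and 18.7 in SEP3, and SEP3 replicate 4 stood at 6.77. The fold enrichment is the authors' ratio over the local background from the input.

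On the log2 scale SEP3-AG exceeded SEP3 by 1.32 at this site, a 2.50-fold difference (exact permutation test over libraries, two-sided, p = 0.0286, the smallest that 3 against 4 libraries allow, and 0.0379 after Benjamini-Hochberg adjustment over the 344 sites listed in all these libraries). The background was high, since 75.3% of those 344 sites were higher in SEP3-AG by the same test and the median difference over them was 1.29, so AGL21 lay close to a typical shared site. Without any 1 of the 7 libraries the difference was 1.24 to 1.40, and p was 0.0667 or 0.1, the smallest then possible. Counted as recovered fragments scaled to the input depth, the difference was 2.02 on the log2 scale. SEP3-AG exceeded SEP3Δtet-AG by 0.71 in log2 fold enrichment (exact permutation p = 0.1, the smallest that 3 against 2 libraries allow), beside a median of 0.80 over 1819 shared sites. This difference was 1.03 without SEP3Δtet-AG replicate 1 and 0.40 without replicate 2. SEP3Δtet-AG exceeded SEP3 by 0.61 (exact permutation p = 0.0667, the smallest for 2 against 4), beside a median of 0.50 over 325 sites, and this was 0.29 and 0.93 without SEP3Δtet-AG replicates 1 and 2 in turn.

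The summits of the AGL21 promoter site also stood at different positions. In SEP3 they were 659, 658 and 654 bp upstream of the gene start in replicates 3, 1 and 2, and 628 bp upstream in replicate 4. In SEP3Δtet-AG they were 618 and 604 bp upstream. In SEP3-AG they were 582, 572 and 566 bp upstream. The order was thus SEP3, SEP3Δtet-AG and SEP3-AG from far to near, with no overlap between complexes. The only strict CArG box of the site, CCATATTTGG, was centred 667.5 bp upstream. The SEP3 summits were 8.5 to 39.5 bp from it, those of SEP3Δtet-AG 49.5 and 63.5 bp, and those of SEP3-AG 85.5 to 101.5 bp. No box with at most 1 mismatch lay within 50 bp of a SEP3-AG summit there.

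Most shared sites did not have such a shift. Over the 317 sites in all 9 lists, the mean summit of SEP3-AG and that of SEP3 were a median of 11.0 bp apart, compared with 76.4 bp at AGL21, where the gap was wider than at 96.8% of those sites. Summits of all 3 complexes did not overlap at 5.05% of the 317 sites. The positions were compared after they had been seen, so no test is given. Peak regions differed in width too. Those of SEP3-AG replicates 1 and 2 ran for 1288 and 1210 bp and also held the summit at the gene start, whereas the other 7 were 192 to 675 bp wide.

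**Figure D2:**
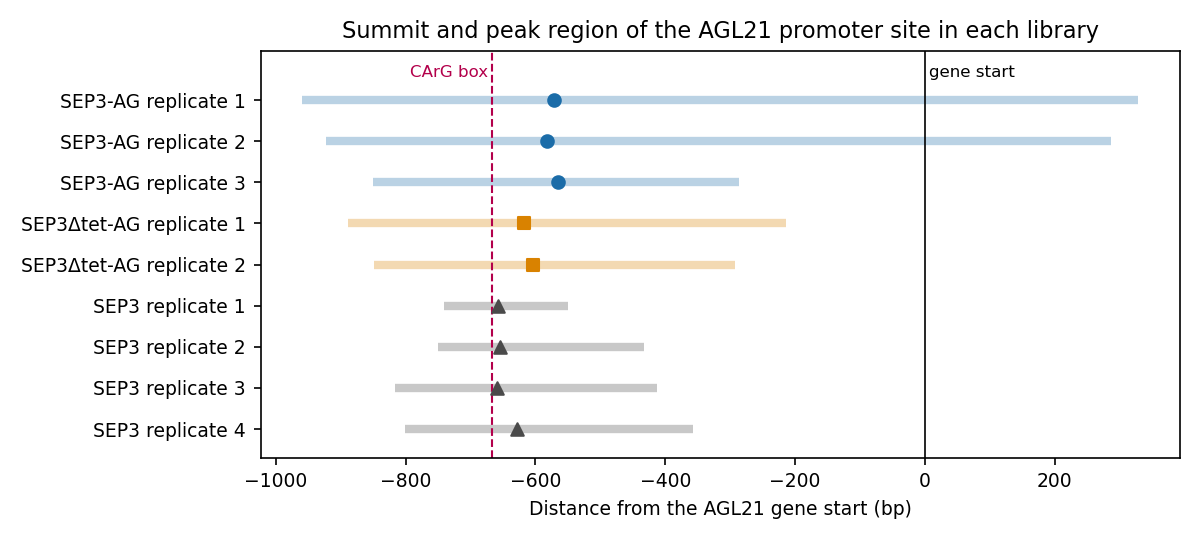
Summit (symbol) and called peak region (bar) of AGL21 site 2 in each of the 9 libraries, by distance from the gene start in bp, with the strict CArG box as a dashed line. SEP3 summits lie 8.5 to 39.5 bp from the box, SEP3-AG summits 85.5 to 101.5 bp.

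AGL21 site 1, the one farthest upstream, was found in SEP3-AG only. Its summits lay 2588, 2582 and 2572 bp upstream, with fold enrichments of 8.20, 8.96 and 6.72 in replicates 3, 1 and 2 (7.96 ± 1.14, SD, n = 3). These were higher than at AGL21 sites 3 and 4 in every SEP3-AG library, yet none of the other 6 lists held the site. Such a pattern was common, since 36.8% of the 6339 sites in all SEP3-AG lists were in no other list. The site lay 2582 bp from the start of AGL21 and 2810 bp from that of AT4G37950, and so belonged to the regions of both genes. A box with 1 mismatch was centred 47.5 bp from its best summit.

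AGL21 sites 3 and 4 were in the 3 SEP3-AG lists and in SEP3 replicate 4, and in neither SEP3Δtet-AG list. Site 3 lay at the gene start, in an exon outside the coding part in 2 of 4 transcripts, with summits 54 to 100 bp downstream of the start. Its fold enrichment was 4.13, 3.24 and 4.57 in SEP3-AG replicates 1 to 3 and 3.14 in SEP3 replicate 4. It was the weakest of the sites listed in every SEP3-AG library. A pair of boxes with 1 mismatch each, centred 54.5 and 101.5 bp downstream of the start, spanned its summits. Site 4 lay in the first intron, 1014 to 1029 bp downstream, with fold enrichments of 5.40, 4.76 and 5.87 in SEP3-AG and 4.38 in SEP3 replicate 4. It also fell in the region of the neighbouring SHM1, which encodes a serine hydroxymethyltransferase of photorespiration, as its start lay 2938 bp away.

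AGL17 carried 1 recurrent site, in its first intron, in 8 of the 9 lists. Site 3 had fold enrichments of 5.88, 5.57 and 7.82 in SEP3-AG replicates 1 to 3 (6.42 ± 1.22, SD, n = 3), and of 5.45 and 3.98 in SEP3Δtet-AG (4.72 ± 1.04, SD, n = 2). In SEP3 it was 3.11, 3.07 and 3.98 in replicates 2 to 4, and replicate 1, with its list of 473 summits, did not list it. Every SEP3-AG library was above every SEP3Δtet-AG library, by 0.45 on average on the log2 scale (exact permutation p = 0.2, where 0.1 is the smallest possible). The mean difference was 0.67 without SEP3Δtet-AG replicate 1 and 0.22 without replicate 2, and by percentile rank within the lists the direction turned, to -3.16 points. Such complete order was found at 77.1% of the 1819 sites shared by the 2 complexes. The summits behind these values held 170 to 285 fragments in SEP3-AG, 196 and 246 in SEP3Δtet-AG and 90 to 146 in SEP3.

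The other sites of AGL17 rested on single lists near their lower end. Site 2, 301 bp upstream of the start, was in SEP3-AG replicate 1 at a fold enrichment of 2.77, at rank 8079 of 8888 summits. Site 1, 2239 bp upstream, was in SEP3 replicate 4 at 2.34 and rank 8563 of 8916. Both strict CArG boxes in the AGL17 region, 2640.5 bp upstream and 4918.5 bp downstream of the start, had no summit of any list within 100 bp. In the genome, 18.7% of the 7741 strict boxes had one.

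AGL16 carried 2 sites, both in every SEP3-AG and SEP3Δtet-AG list and, of the SEP3 lists, in replicate 4 only. Site 1 lay 101 to 150 bp downstream of the annotated gene start, outside the coding part and exonic in 3 of 5 transcripts. Its fold enrichment was 5.81, 5.78 and 8.05 in SEP3-AG (6.54 ± 1.30, SD, n = 3), 4.66 and 4.85 in SEP3Δtet-AG (4.76 ± 0.134, SD, n = 2) and 4.21 in SEP3 replicate 4. Site 2 lay 932 to 968 bp downstream, exonic outside the coding part in 2 of 5 transcripts and otherwise intronic. Its values were 5.44, 4.16 and 5.61 in SEP3-AG (5.07 ± 0.796, SD, n = 3), 3.32 and 3.91 in SEP3Δtet-AG (3.62 ± 0.414, SD, n = 2) and 3.82 in SEP3 replicate 4. Site 1 was above site 2 in all 6 lists.

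At both sites every SEP3-AG library was above both SEP3Δtet-AG libraries. The mean difference was 0.44 on the log2 scale at site 1 (exact permutation p = 0.1) and 0.48 at site 2 (exact permutation p = 0.2). At site 1 it was 0.28 without SEP3-AG replicate 3, and by percentile rank it turned to -8.80 points. Like that of AGL17 site 3, these differences were smaller than at most shared sites, with percentiles of 22.1, 24.2 and 22.2 among the 1819 for AGL16 sites 1 and 2 and AGL17 site 3, and of 43.1 for AGL21 site 2. After adjustment over those 1819 sites the p-values were 0.152 and 0.256, and no site could pass at this number of libraries. Site 1 also lay within the region of AT3G57220, whose start was 3031 bp away.

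**Figure D3:**
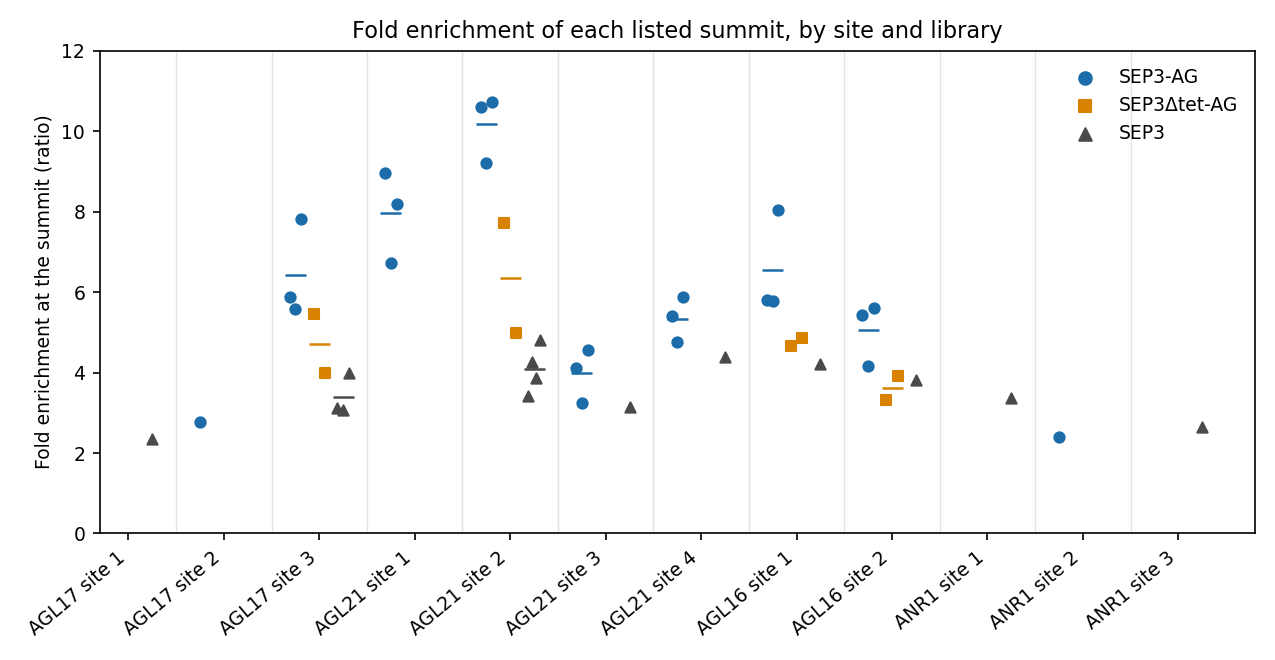
Fold enrichment (ratio over local background) of each listed summit, by site and complex, with 1 point per library and a line at the mean where there are at least 2. Where a site is in both heteromeric complexes, SEP3-AG points lie above those of SEP3Δtet-AG, and AGL21 site 2 reaches 10.7.

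The intron after the first coding exon held a recurrent site in 3 of the 4 genes of the AGL17 clade, and in ANR1 only summits of single lists. This intron was long in each of them, 1139 bp in AGL17, 1678 bp in AGL21, 1203 bp in AGL16 and 2134 bp in ANR1, against 97 bp in AGL12 and a median of 128 bp over 21347 genes. The site was in at least 2 SEP3-AG libraries in 3 of these 4 introns (AGL17, AGL21 and AGL16), in at least 2 SEP3Δtet-AG libraries in AGL17 and AGL16, and in at least 2 SEP3 libraries in AGL17. Among all 379 such introns of at least 1000 bp, 19.3% held a site by this count in SEP3-AG, 7.92% did so in SEP3Δtet-AG and 8.71% in SEP3. Of the 34 other MIKCc genes, the classic MIKC subgroup to which all these genes belong, 16 had such a long intron, and 8 of these 16 held a SEP3-AG site in at least 2 libraries.

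The 3 recurrent intron sites shared the same 10 bases, CCAAATTTAG, a CArG box with 1 mismatch. In AGL17 and AGL21 it was on the strand of the gene and in AGL16 on the opposite strand. Its centre lay 507.5 bp into the intron in AGL17, 491.5 bp in AGL21 and 334.5 bp in AGL16, and it was the only copy in each gene region. Summits lay within 50 bp of it in 8 lists at AGL17, 6 at AGL16 and 4 at AGL21, and the nearest SEP3-AG summit was 0.5, 0.5 and 3.5 bp from its centre in AGL17, AGL16 and AGL21. The genome held 632 copies, of which 19.1% had a summit of any list within 50 bp. A copy lay within 50 bp of 0.755% of all 14570 sites and in 0.0530% of genome windows of the same length. The other 6 boxes with 1 mismatch in these 3 introns had no summit within 50 bp. The share of all such boxes in the genome with a summit was not computed. Even of strict boxes only 18.7% had one within 100 bp, so a box without a summit is common. The shared 10 bases were noticed in the printed sequences, and no test was made of them.

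**Figure D4:**
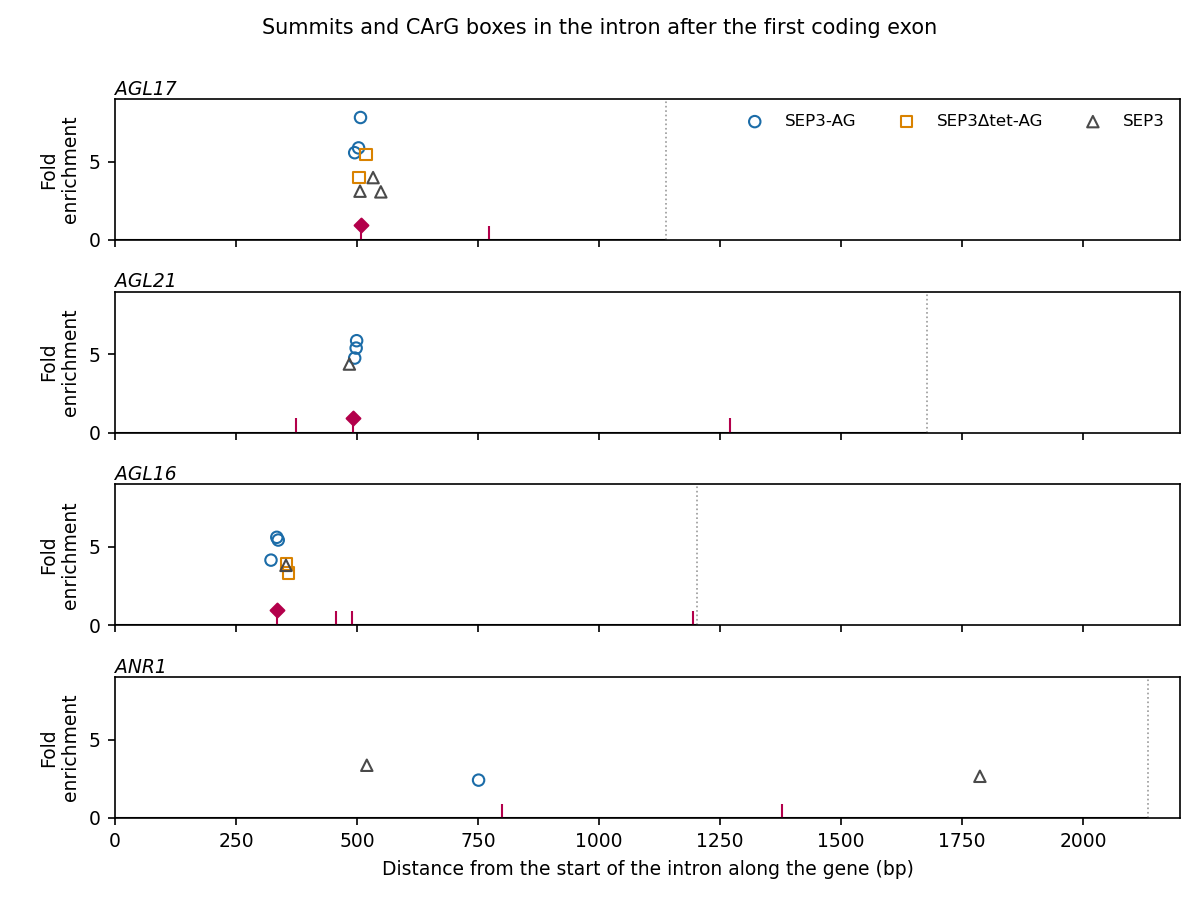
Fold enrichment (ratio) of summits in the intron after the first coding exon of the 4 AGL17-clade genes, by distance from the intron start in bp, with the intron end dotted. Short red lines are CArG boxes with 1 mismatch and diamonds the shared 10-base box, which lies at the summits in AGL17, AGL21 and AGL16 and has no copy in ANR1.

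ANR1 differed from its relatives, as it had no site in more than 1 list. Its 3 summits all lay in the long intron, 988 and 2255 bp downstream of the start in SEP3 replicate 4 and 1219 bp downstream in SEP3-AG replicate 1. Fold enrichments were 3.36 and 2.65 in SEP3 replicate 4 and 2.41 in SEP3-AG replicate 1, on 91, 74 and 92 fragments. The SEP3-AG summit ranked 8749 of 8888 in its list, near the threshold. The intron of ANR1 held 2 boxes with 1 mismatch, of which 1 lay 47.5 bp from that summit, and the region held no strict CArG box and no copy of the 10 bases above. The nearest summit outside the region, 199 bp beyond its upstream edge, was also in SEP3 replicate 4.

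AGL12 had no summit of any of the 9 lists in its region, as was the case for 47.4% of all protein-coding genes. The region had no strict CArG box and 8 boxes with 1 mismatch, whereas the other 4 regions had 12 to 20. The nearest summit was in SEP3 replicate 4, at a fold enrichment of 2.88, 3223 bp upstream of the start and thus 223 bp outside the region. Peak lists give no value for AGL12 below the threshold, so weaker binding was not detectable here.

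Over the 5 genes, 3 regions had a site in at least 2 libraries of SEP3-AG (AGL17, AGL21 and AGL16), compared with 35.8% of all protein-coding genes. The same 3 genes had one in SEP3Δtet-AG, compared with 11.3%, and AGL17 and AGL21 had one in SEP3, compared with 11.1%. The lists differ in length, and with the best 473 summits of every library, the length of the shortest list, the counts were 0, 1 and 1. The shares above are for the full lists, and none is given here for the shortened lists, so the lower counts are not a result about these genes. The regions of the 5 genes were 6583 to 9306 bp long and thus longer than the median of 6078 bp over all genes, and the part of region length in the counts was not tested. Of the 34 other MIKCc genes, 28 had such a site in SEP3-AG, 13 in SEP3Δtet-AG and 18 in SEP3. Of the 7 sites in all 3 SEP3-AG lists, 4 were also in both SEP3Δtet-AG lists (AGL17 site 3, AGL16 sites 1 and 2, and AGL21 site 2), beside 28.7% of all such sites. AGL21 site 2 was in all 9 lists, as were 317 of the 6339 sites found in all 3 SEP3-AG lists.

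**Figure D5:**
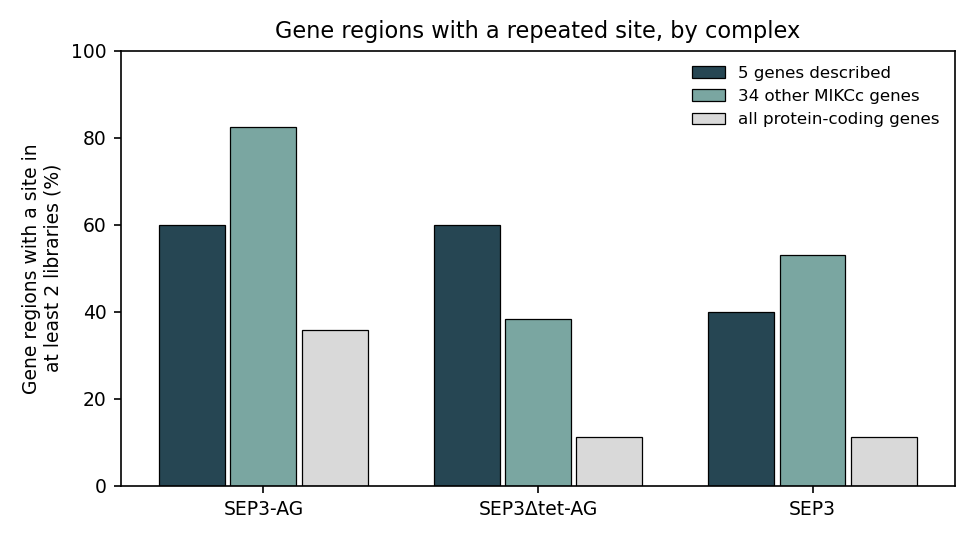
Percent of gene regions with a site in at least 2 libraries of a complex, for the 5 genes described, the 34 other MIKCc genes and all 27444 protein-coding genes. The 5 genes stand for 3, 3 and 2 regions in SEP3-AG, SEP3Δtet-AG and SEP3.

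CArG boxes were mostly imperfect at these sites. A strict box lay within 50 bp of the best summit at 1 of the 12 sites, AGL21 site 2, at a distance of 49.5 bp, close to that limit. The share of 8.33% stood beside 7.86% of all 14570 sites and 0.645% of genome windows of the same length. With 1 mismatch allowed, 8 of the 12 sites had a box near the best summit, including all 7 that were in every SEP3-AG list. This stood beside 50.4% of all sites, 54.8% of the 8201 sites in at least 2 SEP3-AG libraries and 12.5% of genome windows. At AGL21 site 2 the best summit was from SEP3Δtet-AG, and no SEP3-AG summit there had a box within 50 bp. The 4 sites without a box were AGL17 sites 1 and 2 and ANR1 sites 1 and 3, each in a single list. A match is a description of the letters and not of a protein bound there.

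Measured by the best log2 fold enrichment in each of the 9 libraries (0 where the region had no summit), AGL21 was nearest to SHP2 and AG itself among the other MIKCc genes, at Euclidean distances of 0.511 and 0.531. SHP2 acts in ovule and fruit development, and both genes had a summit in all 9 lists. AGL17 was nearest to AGL18 (1.27) and AP1 (1.33), and AGL16 to SEP4 (1.73) and AGL15 (1.93). ANR1 was nearest to AGL13 (1.28) and MAF5 (1.76). AGL12 was at distance 0 from SHP1, SEP2, AGL63 and AGL72, the 4 other MIKCc genes with no summit in any list. The MIKCc genes with a summit in every list were AG, SHP2, AP3, SOC1, AGL19 and SVP, 6 of 34 beside 1.76% of all protein-coding genes.

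Genes tied to the functions of the family were counted in the same way. Of 19 genes, 11 had a site in at least 2 libraries of SEP3-AG, 6 in SEP3Δtet-AG and 7 in SEP3, and 6 had no summit in any list. Over all protein-coding genes the shares were 35.8%, 11.3%, 11.1% and 47.4%, and the lists below hold so few genes that their counts are given as descriptions only. Among 5 genes of nitrate response and lateral roots, 3 had a SEP3-AG site, and NLP7, a transcription factor of the nitrate response, had a summit in all 9 lists, as 1.76% of all genes had. Among 4 auxin and abscisic acid genes tied to AGL21, 2 had a SEP3-AG site, and ABI5, a transcription factor of abscisic acid signalling in seeds, was in all 9 lists. Of 4 cell cycle genes tied to AGL12, 1 had a SEP3-AG site, and 3 had no summit at all. Of 6 flowering genes tied to AGL16 and AGL17, 5 had one, of which SOC1 and SVP, also counted above as MIKCc genes, were in all 9 lists. SOC1 promotes flowering and SVP represses it.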

How the data were processed

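The labels described 10 samples, 9 purified libraries and 1 input DNA. The authors aligned reads with bowtie2 to the nuclear chromosomes of TAIR10, kept uniquely placed reads, removed duplicates and called peaks library by library with MACS2, using the input as control (genome size 120000000, several summits per region); versions are not given in the sources used here. The deposited lists give a fold enrichment, a ratio over local background, and −log10 of the p-value and q-value for each summit. The score column was not used.

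Gene positions came from TAIR10.1, and all peaks lay within its chromosomes. Summits within 200 bp of a better-ranked summit, by percentile within its list, formed a site. Fragments at a summit were recovered from fold enrichment and −log10 p with the scaling that MACS2 applies, checked on simulated data. Among the 300 weakest summits, the values tested were whole multiples of 1 fragment, within 0.03 of a fragment, in 100% of cases in 7 libraries and 99.4% in SEP3Δtet-AG replicate 2. In SEP3-AG replicate 3, where the input had been scaled down, 56.8% of background values were, so its scaling is less certain. Fragments after duplicate removal cover counting error only. Log2 fold enrichments were compared by exact permutation tests over libraries at sites listed in every library of both complexes, adjusted over all such sites. Replicate protein reactions are described by the authors for both AG complexes, but which library used which reaction is not given in the sources used here, so p-values measure the spread between libraries, which may be partly technical. The genes, their relatives and the functional lists were chosen with earlier results of these data known. All sites of the 5 genes are named, with the 2 nearest MIKCc genes for each and list genes with a summit in every list. Python 3.11.15 with numpy 2.4.6, pandas 2.3.3 and scipy 1.17.1 was used.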

Additional observations from a re-analysis of the deposited data

Results flagged for a closer look

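The number of summits in the 5 gene regions was uneven among the 4 SEP3 libraries. Replicates 1 to 4 had 1, 2, 2 and 9, and replicate 4 stood apart, with a gap of 0.875 of the whole range. Its list was also the longest of the group, 8916 summits against 473 to 1915. Divided by list length, the counts of replicates 1 to 4 stood in the proportion 21.1 to 16.3 to 10.4 to 10.1. Replicate 4 was thus the lowest of the group relative to its list length. The values of replicates 1 to 3 rest on 1 or 2 summits each, and the part of list length was not tested.

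At the promoter site of AGL21 the summit of SEP3 replicate 4, 628 bp upstream of the gene start, stood apart from those of the other SEP3 libraries at 654 to 659 bp upstream, with a gap of 0.839 of the range. Chance alone flags about 1 in 20 groups of samples by this measure.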

How the results depend on the processing

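Of 92 alternative values, 75 kept direction and side of the threshold (counts within 1.5 times). In comparisons with SEP3Δtet-AG the side of the 0.05 threshold was fixed in advance. The smallest exact permutation p there was 0.1 against SEP3-AG and 0.0667 against SEP3, so only direction could change. With the same number of top summits from every library, 473, the regions with a repeated site fell to 0 in SEP3-AG, to 1 in SEP3Δtet-AG and also to 1 with SEP3 alone. The share of all protein-coding genes at this cut was not computed, so the fall is not a result about these genes. For SEP3, a site in any 1 library gave 4 regions and a site in every library 1. Leaving out each library changed none of these 3 counts. By percentile rank within the list, SEP3-AG minus SEP3Δtet-AG turned to -8.80 points at AGL16 site 1 and -3.16 at AGL17 site 3, and AGL21 site 2 kept 8.89 points for SEP3-AG minus SEP3 (exact permutation p = 0.457). The cause was not tested. Leave-one-out values of that difference were 1.24 to 1.40, none under 0.05. With a replicate block (paired by number) it was 1.40 (exact sign-flip p = 0.25, the smallest for 3 pairs). Whether libraries of the same number were made together is not given in the sources used here. Deviations of same-numbered libraries correlated between -0.27 and 0.03. With only 2 SEP3Δtet-AG libraries such values are mirror images of each other, so they cannot decide this. With 1 mismatch allowed, 66.7% of the sites had a box instead of 8.33%. Fragments at the summits described ranged from 74 to 449, and below the threshold of its list a site has no value at any depth.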
